A study of Mus musculus with 8 samples.

Results

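A set of 10 genes that the transcription factor p53 is known to switch on was followed in mouse liver: Cdkn1a, Mdm2, Ccng1, Bax, Gdf15, Phlda3, Eda2r, Trp53inp1, Btg2 and Zmat3. They were listed by name as p53 targets, with no measured value in the rule, although earlier results of these data were known when the list was made. All 10 were present among the 22361 probe sets of the deposited table, each as a single probe set with an Ensembl mouse gene ID. The livers came from 8 female C57BL/6 mice, 1 array per mouse. One group of 4 mice was injected intravenously with SPC3833, an antisense oligonucleotide, which is a synthetic strand of nucleotides that pairs with a complementary RNA. It was given as 3 daily doses of 5 mg/kg, and the other 4 mice received saline. Dosing was on days 0, 1 and 2, and the labels put the liver sample on day 3 in the treatment protocol but on day 4 in the design text. No genetic modification is given for either group, the RNA that SPC3833 was made to bind is not named in the labels, and there was no control oligonucleotide among the groups used here. A response to this sequence and a response to any oligonucleotide given this way cannot be told apart.

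The p53 protein is kept scarce in unstressed cells by Mdm2, which marks it for degradation. DNA damage and other stresses release it, and it then raises genes that halt the cell cycle, that promote cell death, that repair DNA and that restrain p53 itself. In liver, Cdkn1a, Mdm2 and Ccng1 are widely used readouts of this pathway, although most of the 10 genes also answer to other signals, as Gdf15 does to the integrated stress response and Btg2 to growth factor signals.

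Of the 10 genes, 3 rose with SPC3833 and 0 fell. The 3 were Cdkn1a, which was 2.04-fold higher, Ccng1, which was 1.61-fold higher, and Bax, which was 1.57-fold higher. A gene was called changed at an adjusted p under 0.05, from limma with Benjamini-Hochberg adjustment over all 22361 probe sets. By the same rule 4.07% of all probe sets changed, 2.33% higher and 1.74% lower. The 521 probe sets behind the 2.33% became 240, 218, 299 and 340 when saline array 1, 2, 3 or 4 was left out in turn. Omitting SPC3833 array 1, 2, 3 or 4 gave 309, 418, 458 and 308. Eda2r was 1.57-fold higher on average, and above every saline liver in all 4 treated mice, but did not pass the adjusted threshold. The other 6 genes, Mdm2, Phlda3, Gdf15, Trp53inp1, Zmat3 and Btg2, lay 1.05-fold to 1.13-fold higher with intervals that included no change. The median log2 fold change was 0.17 over the 10 genes and 0.03 over all probe sets. All 10 fold changes were above 0, as were 58.9% of those of all probe sets. At an unadjusted limma p under 0.05, 4 of the 10 were higher and 0 lower, and 17.2% of all probe sets passed in either direction.

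**Figure D1:**
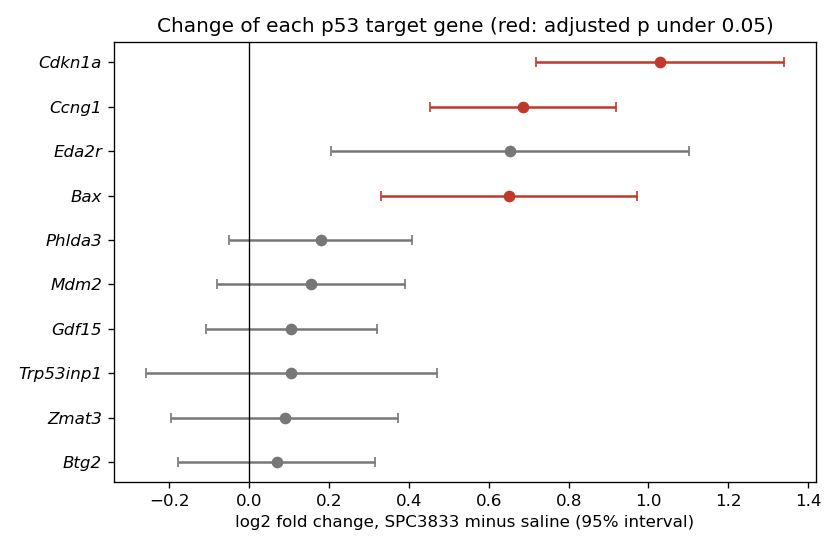
Log2 fold change of each of the 10 p53 target genes (x axis, SPC3833 minus saline), with its 95% interval from limma, 4 mice per group. Cdkn1a (1.03), Ccng1 (0.69) and Bax (0.65), in red, passed an adjusted p of 0.05, and Eda2r (0.65), in grey, has an interval above 0 but did not pass.

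Mean log2 expression over all probe sets lay between 5.77 and 5.80 on 7 arrays and at 5.88 on SPC3833 array 2. The brightest probe set of SPC3833 array 4 reached 13.2, where the other 7 arrays reached 14.1 to 14.2. Results are therefore also given without these arrays where that matters. The IDs in the files are paired with no gene names in the tables used here, so the liver label was not checked against hepatocyte markers, and other genes of the p53 pathway, markers of other liver cell types and genes of the cell cycle were not analysed. In whole liver RNA, a change in the make-up of cells and a change in RNA per cell cannot be told apart.

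Cdkn1a (ENSMUSG00000023067_at) encodes p21, an inhibitor of cyclin-dependent kinases that stops the cell cycle and is the classical p53 target. Its log2 expression in the saline livers was 5.53, 5.52, 5.15 and 5.15 (arrays 1 to 4), and in the SPC3833 livers it was 6.20, 6.31, 6.22 and 6.75. The groups did not overlap, and the lowest treated value lay 0.66 above the highest saline value. The means were 5.34 ± 0.22 with saline and 6.37 ± 0.26 with SPC3833 (SD, n = 4 each). The log2 fold change was 1.03 (SE 0.142, 95% interval 0.72 to 1.34, limma adjusted p = 0.00283), which is 2.04-fold with an interval of 1.65 to 2.53. An exact permutation test, two-sided, gave p = 0.0286, which is its minimum with 4 mice per group. Among the 521 probe sets that rose, Cdkn1a was the 21st by size. Treated arrays 1 to 3 lay close together, between 6.20 and 6.31, and array 4 was the highest.

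The promoter of Cdkn1a is shown because this gene had the largest change of the 10 and its upstream window met the full-site rule below. RefSeq promoter windows run from 250 bases before to 50 bases after a transcription start in GRCm38.p6, and 8 of the 10 genes had at least 1. Each window was searched on both strands for the p53 half-site consensus, a 10-base motif that is its own reverse complement. Only exact matches were counted. A full site was taken as 2 half-sites with a spacer of at most 13 bases. Of 32851 windows in the table, 8.36% held a half-site and 0.0731% a full site. The first of the 2 Cdkn1a windows, chr17:29090729-29091028 (plus strand), held 2 half-sites with a spacer of 12 bases. They begin at -73 and -51, counted in bases from the transcription start of that window. The second, at chr17:29093519-29093818, held 0. The first window is written 5′ to 3′, with the matching half-sites in capitals. The 10 bases right after the second of them, tgacatgttc, begin with T where the consensus has A or G. They match it at every other base, but only exact matches were marked, so they were left in lower case. Whether p53 binds the marked pair, or the second half-site together with these bases, was not tested.
Cdkn1a upstream start: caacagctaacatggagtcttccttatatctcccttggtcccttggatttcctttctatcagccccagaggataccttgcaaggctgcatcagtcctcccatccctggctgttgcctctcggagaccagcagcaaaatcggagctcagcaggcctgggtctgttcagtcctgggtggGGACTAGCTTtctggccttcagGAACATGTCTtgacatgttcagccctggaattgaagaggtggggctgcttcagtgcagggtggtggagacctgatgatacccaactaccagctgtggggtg

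Ccng1 (ENSMUSG00000020326_at) encodes cyclin G1, which works with a protein phosphatase to activate Mdm2 and so restrains p53. Its log2 expression was 8.60, 8.75, 8.53 and 8.68 in the saline livers and 9.13, 9.34, 9.24 and 9.58 in the SPC3833 livers. Every treated liver was higher than every saline liver, by at least 0.39. Its means were 8.64 ± 0.09 and 9.32 ± 0.19 (SD, n = 4 each). The log2 fold change of 0.69 (SE 0.107, 95% interval 0.45 to 0.92) had a limma adjusted p of 0.0055, and the exact permutation p was again 0.0286. The order of the treated livers, array 4 highest, then 2, 3 and 1, was the one seen for Cdkn1a.

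Mdm2 (ENSMUSG00000020184_at), the ubiquitin ligase that degrades p53 and is itself raised by p53, did not pass. Its log2 expression was 7.02, 7.01, 7.11 and 6.90 with saline and 6.89, 7.23, 7.18 and 7.36 with SPC3833. Arrays 2, 3 and 4 lay above every saline liver, and array 1 lay below all of them. For Mdm2 the log2 fold change was 0.15 (SE 0.108, 95% interval -0.08 to 0.39, limma adjusted p = 0.541). Single arrays moved this value, to 0.25 without SPC3833 array 1 and 0.09 without array 4, and to 0.021 with arrays 2 and 4 both left out, and it passed in none of these fits. With all arrays, the upper bound for Mdm2 (0.39) lay below the lower bounds for Cdkn1a (0.72) and Ccng1 (0.45). The difference between these genes was not tested.

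Trp53inp1 (ENSMUSG00000028211_at), a stress-induced nuclear protein that promotes phosphorylation of p53, varied widely in both groups. It was at 9.36, 9.49, 9.13 and 9.73 with saline and at 9.25, 9.68, 9.93 and 9.27 with SPC3833. The treated livers split, with arrays 2 and 3 above the saline mean of 9.43 and arrays 1 and 4 below it. Its log2 fold change was 0.10 (SE 0.167, 95% interval -0.26 to 0.47, limma adjusted p = 0.843). Its highest treated liver was array 3, and array 4, the highest for Cdkn1a, Ccng1 and Bax, was the second lowest here.

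The windows of Ccng1 (chr11:40755237-40755536, minus strand) and Mdm2 (chr10:117710709-117711008, minus strand) are shown side by side because both held a single half-site at nearly the same place, at -185 and -186, while only Ccng1 passed the test. They are written 5′ to 3′ along the gene, with the exact half-site in capitals. The windows are not alike beside it. In Ccng1 the 10 bases right before it, agacctgccc, depart from the consensus at 1 base only, C in place of A or T. They were left in lower case. The bases on either side of the Mdm2 half-site depart from the consensus at more positions. Whether p53 binds either window was not tested.
Ccng1: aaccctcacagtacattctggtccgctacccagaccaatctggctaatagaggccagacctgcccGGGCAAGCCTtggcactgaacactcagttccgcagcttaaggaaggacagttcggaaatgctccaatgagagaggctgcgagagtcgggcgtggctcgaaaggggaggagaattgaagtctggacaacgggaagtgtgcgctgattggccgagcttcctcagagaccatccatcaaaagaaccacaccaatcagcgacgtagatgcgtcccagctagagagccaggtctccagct
Mdm2: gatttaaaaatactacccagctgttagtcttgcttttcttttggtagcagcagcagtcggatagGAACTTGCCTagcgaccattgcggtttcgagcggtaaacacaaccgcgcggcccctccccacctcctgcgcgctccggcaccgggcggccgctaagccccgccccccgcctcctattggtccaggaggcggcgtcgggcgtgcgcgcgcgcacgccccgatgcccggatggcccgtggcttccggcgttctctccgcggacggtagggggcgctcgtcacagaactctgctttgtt

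Bax (ENSMUSG00000003873_at) encodes the protein that permeabilises the outer mitochondrial membrane in apoptosis. Its log2 expression was 5.92, 5.97, 5.92 and 5.95 in the saline livers, and in the SPC3833 livers it was 6.61, 6.22, 6.47 and 7.05. The saline livers were nearly equal, arrays 1 and 3 holding the same deposited value, and the treated livers were spread over a range above them without overlap. The SDs were 0.0245 with saline and 0.351 with SPC3833 around means of 5.94 and 6.59 (n = 4 each). The log2 fold change was 0.65 (SE 0.146, 95% interval 0.33 to 0.97, limma adjusted p = 0.0316), and the exact permutation p was 0.0286. The call was not firm. Centred on each array's median, the change was 0.61 with an adjusted p of 0.067, and without saline array 1, 2, 3 or 4 or SPC3833 array 1 the limma adjusted p was 0.0859, 0.0784, 0.0778, 0.0695 and 0.0739. Without SPC3833 array 4, its highest liver, the change was 0.49 and still passed (limma adjusted p = 0.0334).

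The Bax window (chr7:45466849-45467148, minus strand) is shown as that of the remaining gene that rose. It held a single half-site, at -201, in capitals.
Bax: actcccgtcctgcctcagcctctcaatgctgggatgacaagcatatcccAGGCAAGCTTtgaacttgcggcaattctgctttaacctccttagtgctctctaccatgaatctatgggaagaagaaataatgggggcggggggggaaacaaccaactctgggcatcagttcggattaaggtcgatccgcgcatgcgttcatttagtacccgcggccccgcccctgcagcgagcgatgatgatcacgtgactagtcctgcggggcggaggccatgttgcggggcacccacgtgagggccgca
Half-sites were thus found in 4 of the 10 windows of these genes, at Cdkn1a, Mdm2, Ccng1 and Bax, against 8.36% of all windows. The genes were listed as p53 targets, and a link between these matches and the changes was not tested. None was found in the windows of Gdf15, Phlda3, Eda2r and Btg2, and Trp53inp1 and Zmat3 had no window to search. The Phlda3 window ends in gaacatgt, which matches the start of the consensus, so a half-site across that edge would have been missed. A match describes the letters of these windows only, and p53 sites are also known outside them, as in the first intron of Mdm2.

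Eda2r (ENSMUSG00000034457_at), a receptor of the tumour necrosis factor receptor family for the ectodysplasin form EDA-A2, had the widest spread among treated livers. Its log2 expression was 4.02, 4.27, 4.15 and 3.94 with saline and 4.35, 4.40, 4.79 and 5.46 with SPC3833. The groups did not overlap, but the lowest treated liver was only 0.08 above the highest saline liver. The means were 4.10 ± 0.14 and 4.75 ± 0.51 (SD, n = 4 each). The log2 fold change of 0.65 (SE 0.205, 95% interval 0.20 to 1.10) had a limma adjusted p of 0.107 and an exact permutation p of 0.0286. The probe set was dim, since 22.9% of all probe sets had a lower mean. Without SPC3833 array 4 the log2 fold change was 0.42 (limma adjusted p = 0.121). Groups that do not overlap, higher with SPC3833, were found for 4 of the 10 genes (Cdkn1a, Ccng1, Bax and Eda2r) and for 7.34% of all probe sets.

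Phlda3 (ENSMUSG00000041801_at), a small pleckstrin homology domain protein that blocks the survival kinase Akt, was at 6.04, 5.76, 5.85 and 5.99 with saline. With SPC3833 it was at 5.85, 6.19, 6.12 and 6.19. Arrays 2, 3 and 4 were above every saline liver, as for Mdm2, and array 1 fell within the saline range. Its log2 fold change was 0.18 (SE 0.105, 95% interval -0.05 to 0.41, limma adjusted p = 0.439).

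Btg2 (ENSMUSG00000020423_at), an antiproliferative protein that promotes removal of poly(A) tails from messenger RNA, was at 6.33, 6.32, 6.03 and 6.34 with saline and at 6.47, 6.19, 6.14 and 6.50 with SPC3833. The groups overlapped, with 2 treated livers above all saline livers and 2 within the saline range. Its log2 fold change was 0.07 (SE 0.113, 95% interval -0.18 to 0.32, limma adjusted p = 0.851), the smallest of the 10.

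Gdf15 (ENSMUSG00000038508_at), a secreted stress hormone of the transforming growth factor beta superfamily, was at 5.94, 5.89, 5.80 and 5.94 with saline and at 5.97, 6.12, 5.78 and 6.13 with SPC3833. In 3 treated livers it lay above the saline range, only slightly so in array 1, and in array 3 just below it. For Gdf15 the log2 fold change was 0.11 (SE 0.0976, 95% interval -0.11 to 0.32, limma adjusted p = 0.681). Omitting SPC3833 array 3 gave 0.18, omitting array 2 gave 0.066 and omitting array 4 gave 0.06, and it passed in none of these fits.

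Zmat3 (ENSMUSG00000027663_at), a zinc finger protein that binds RNA, was at 5.08, 5.56, 5.32 and 5.59 with saline and at 5.40, 5.71, 5.52 and 5.28 with SPC3833. A single treated liver, array 2, exceeded the saline range. The log2 fold change was 0.09 (SE 0.130, 95% interval -0.20 to 0.37, limma adjusted p = 0.827). The exact permutation p of Zmat3, Btg2 and Trp53inp1 was 0.571, 0.657 and 0.657, that of Mdm2 and Gdf15 was 0.229, and that of Phlda3 was 0.143.

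**Figure D2:**
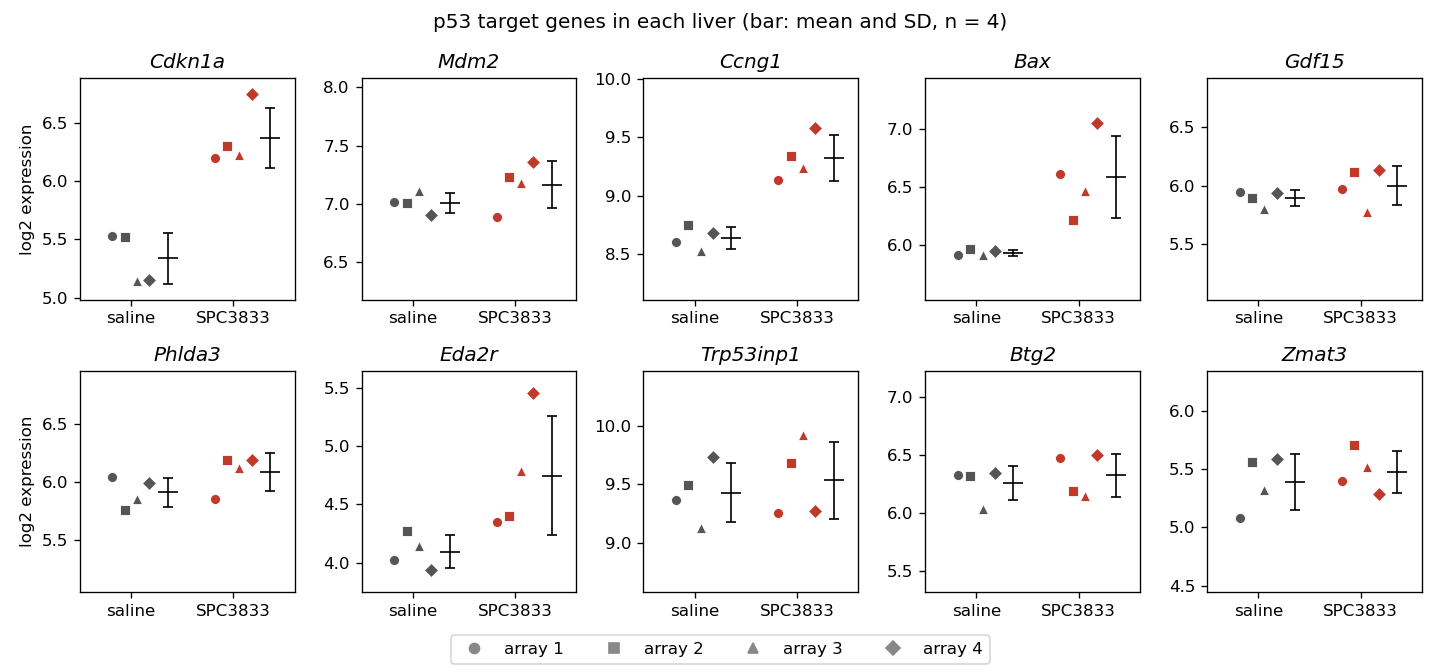
Log2 expression (y axes, all spanning a similar range) of the 10 p53 target genes in each liver, 4 saline (grey) and 4 SPC3833 (red), with marker shape for the array number and bars for the mean and SD. The groups are separate for Cdkn1a, Ccng1, Bax and Eda2r and overlap for the other 6 genes.

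The treated livers differed among themselves in a way that recurred across the genes. SPC3833 array 4 held the highest treated value for 7 of the 10 genes (Cdkn1a, Mdm2, Ccng1, Bax, Gdf15, Eda2r and Btg2), against 18.1% of all probe sets and 48.6% of the probe sets that rose. SPC3833 array 1 held the lowest treated value for 6 of the 10, against 24.8% of all probe sets. The matching share of the probe sets that rose was not computed for array 1. Measured from the saline mean, array 4 was higher by 1.41 for Cdkn1a, 1.36 for Eda2r, 1.12 for Bax and 0.95 for Ccng1 on the log2 scale. The mean of the other 3 treated arrays was higher by 0.90, 0.42, 0.49 and 0.60 for the same genes. Of these 4 genes, array 4 was furthest from the other treated arrays for Eda2r and Bax, while Cdkn1a was at least 0.86 above the saline mean in every treated liver. For Trp53inp1 and Zmat3 array 4 lay below the saline mean, by -0.16 and -0.11. The SD was larger with SPC3833 than with saline for 9 of the 10 genes, against 59.5% of all probe sets. For the SD, too, the share of the probe sets that rose was not computed. The single highest value of array 4 was also lower than that of the other arrays, and its part in the spread of these genes was not tested.

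**Figure D3:**
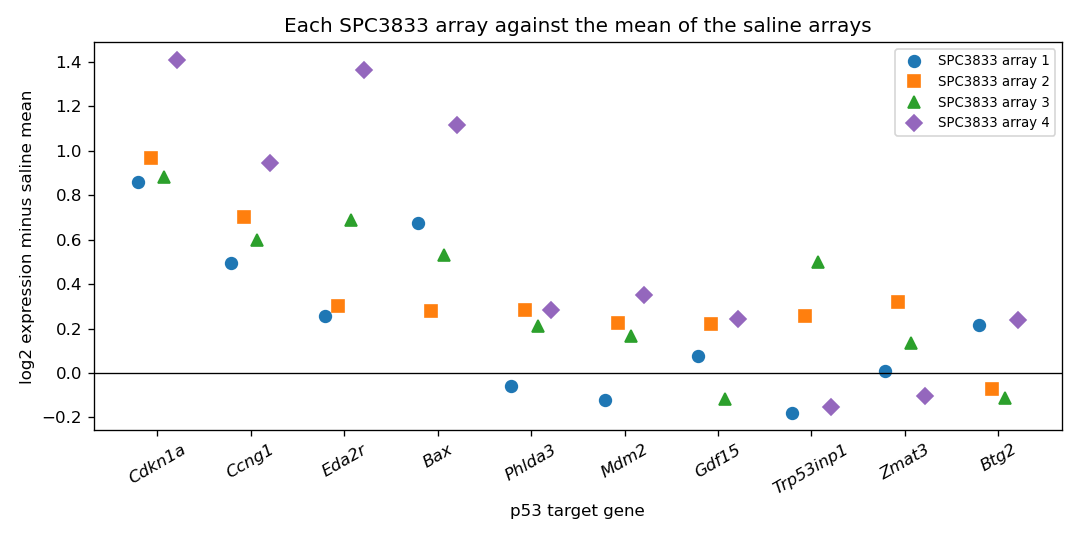
Log2 expression on each of the 4 SPC3833 arrays minus the mean of the 4 saline arrays (y axis) for the 10 genes (x axis, ordered by mean change). Array 4 is the highest for 7 genes, and every treated array lies above 0 for Cdkn1a, Ccng1, Eda2r and Bax.

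With SPC3833 arrays 2 and 4 both left out, a setting added once the data had been seen, the same 3 genes passed, with log2 fold changes of 0.87 for Cdkn1a, 0.55 for Ccng1 and 0.60 for Bax (limma adjusted p = 0.0192, 0.0308 and 0.0165). Cdkn1a and Ccng1 passed in all 18 alternative fits, with changes of 0.87 to 1.10 and of 0.55 to 0.75. Bax passed in 12 of 18. Eda2r passed in none of the 16 that tested it, with adjusted p from 0.0785 to 0.223, and the other 6 genes passed in none.

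**Figure D4:**
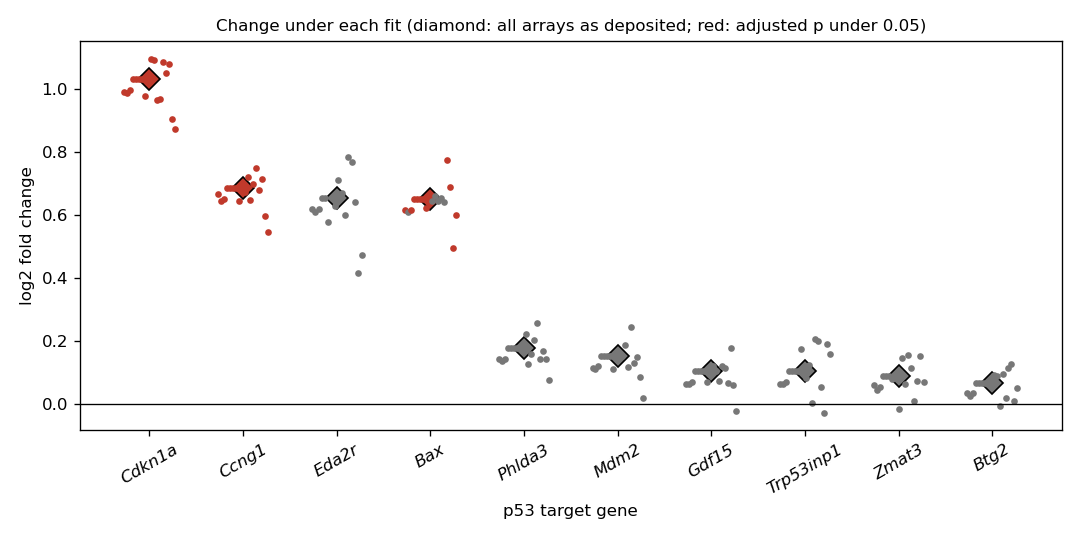
Log2 fold change (y axis) of each gene (x axis) in the comparison as deposited (diamond) and in each alternative fit that tested it (dots), red where the limma adjusted p was under 0.05. Cdkn1a and Ccng1 are red throughout, Bax in 12 of 18 alternatives, and the other genes in none.

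By log2 fold change regardless of p, Cdkn1a ranked 29th of 22361 probe sets, Ccng1 146th, Eda2r 173rd and Bax 178th. The remaining 6 ranked between 4085th (Phlda3) and 8854th (Btg2). Among the probe sets called higher, Ccng1 was the 105th and Bax the 124th of 521 by size. The share of rises among all changed probe sets depended on the scaling, which was 57.2% for the deposited values, 42.6% once the arrays were quantile normalized, 36.2% with each array centred at its median and 45.3% with each centred at its 75th percentile. The changes of Cdkn1a under these 3 scalings were 0.99, 0.99 and 1.00, and those of Ccng1 were 0.67, 0.64 and 0.65, all past the threshold. Those of Bax were 0.62, 0.61 and 0.62 (limma adjusted p = 0.0476, 0.067 and 0.048), not past it with the median.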

How the data were processed

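The deposited file is 1 table of log2 expression values, a scale inferred from its range of 0.88 to 14.2. Per the submitters' processing notes, affy was used, and the background correction, normalization, probe set definition and genome build are not given in the sources used here. Gene symbols of the 10 IDs came with the choice of the genes. The gene table used here paired 0 of 22361 IDs with a name, so 7 further gene lists and the cell type markers that had been planned were not analysed.

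Groups came from the sample titles, and each array was counted as 1 mouse. All 22361 probe sets were fitted in R 4.3.3 by limma 3.58.1 (lmFit, then eBayes, without trend, filter or covariate), two-sided, with Benjamini-Hochberg adjustment over all of them. Single genes were also given a two-sided exact permutation test over the 70 assignments of the arrays. The fit was tested on simulated data with independent normal noise. That noise holds no effect shared by the probe sets of an array, so the test cannot show how such effects act on the calls. The rule for named genes was to name all 10 whatever their values; genes of similar pattern were not named, as their IDs had no symbols. Genes and lists were chosen with earlier results of these data known. Alternatives changed the scaling, filter, variance prior, array weights, replicate block, threshold and arrays used. Precision is limited by having 4 arrays in each group. Promoters are RefSeq's (GRCm38.p6), matched by symbol. Figures used matplotlib 3.10.9.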

Additional observations from a re-analysis of the deposited data

Results flagged for a closer look

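Of the 20 sets of 4 values examined (10 genes in each group), 1 held a value set apart from the rest (Dixon's test at its 95% critical value), and chance alone gives about 1 in 20. It was Btg2 in saline array 3, at 6.03 against 6.32 to 6.34 in the other saline livers.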

How the results depend on the processing

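The number of these genes that rose was 3 or 2 in all 20 alternatives, and 0 fell in any. It was 2, without Bax, after centring on the median, at an adjusted p under 0.01, and without saline array 1, 2, 3 or 4 or SPC3833 array 1. The fits without an array had fewer samples. The median log2 fold change of the genes tested stayed between 0.12 and 0.25. It was taken over all 10 except with the 25th and 50th percentile filters, which kept 9 and 8. The sign turned for 4 genes that had not passed: Gdf15 was at -0.021 without SPC3833 arrays 2 and 4, Trp53inp1 at -0.026 without SPC3833 array 3 (leaving out 1 array gave -0.026 to 0.21), Btg2 at -0.005 without saline array 3 (-0.005 to 0.13) and Zmat3 at -0.013 without saline array 1 (-0.013 to 0.16). The cause was not tested.

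Deviations of same-numbered arrays correlated, across probe sets, at 0.159, 0.0429, -0.0304 and 0.145. Arrays with unlike numbers were not compared, so these values cannot show whether the mice were paired. The main fit did not pair them. With the replicate block, the limma adjusted p was 0.0101 for Cdkn1a, 0.00928 for Ccng1 and 0.0332 for Bax, and 3 genes rose as before. Over all probe sets 911 changed as deposited, 1552 with only those above the 50th percentile, 296 at an adjusted p under 0.01, 1582 at one under 0.1, and 467 to 967 without 1 array. Eda2r and Zmat3 were too dim to enter the filter at the 50th percentile, and Eda2r that at the 25th. The planned lists of other genes were not run. Whether low signal limited the test of Eda2r was not tested.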
